A study of Homo sapiens with 4 samples.

Results

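Peaks of H3K4me3 that lie in DNA transposons were followed in a luminal breast cancer cell line, HCC1428, treated with the KDM5 inhibitor C48 or with its vehicle. The members are all merged peaks that the deposited annotation places in an intron or between genes and whose detailed annotation names a repeat of class DNA, at any distance to a transcription start site (TSS). They number 1698 of 110018 merged peaks (893 in introns and 805 intergenic), carry 185 element names from 15 families, and make up a small part of the 86023 intron and intergenic peaks. A further 9 peaks with the uncertain class "DNA?" were left out. The mark was profiled by CUT&Tag, in which an antibody directs the transposase Tn5 to chromatin carrying the mark. The groups were HCC1428 cells of WT genotype given 2.5 µM C48 and HCC1428 cells of WT genotype given DMSO, both collected on day 5, with 2 libraries each. The labels call these biological replicates, but no source used here says whether each came from its own culture. The p-values therefore reflect the spread between libraries, which could be technical only. All values come from 1 cell line, and C48 was used at 1 dose.

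DNA transposons move by a cut-and-paste mechanism in which a transposase binds the inverted repeats at the ends of the element, excises it and inserts it elsewhere. In the human genome they are fossils with no known active copies, and most belong to the hAT superfamily (the Charlie, Tip100 and Blackjack families) or to the Tc/mariner superfamily (Tigger and Mariner). Many, such as MER5A, MER20, MER1A and MER1B, are short copies that never coded for a transposase and were moved by the enzyme of a longer relative. H3K4me3 marks active promoters, and KDM5 enzymes remove it. MER20 is known as a source of regulatory sequence in endometrial stromal cells.

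Depth was 58.4 and 72.7 M aligned tags with C48 and 88.4 and 64.6 M with DMSO, and merged peaks held 64.0% to 66.3% of these tags. Values are HOMER tags per 10 M aligned tags, further scaled with TMM factors, and are called scaled tags below. TMM takes most peaks as unchanged, so each direction is relative to the bulk of peaks. The median log2 fold change (C48 against DMSO) of all 43712 tested peaks was 0.09 with TMM, 0.02 with DESeq2 size factors, 0.40 on the deposited scale, 0.44 by column total and 0.81 by ribosomal protein promoters. The Drosophila spike-in that was added to the samples was not used here. The study reports fewer Drosophila reads in C48 than in DMSO samples, along with a global rise of the mark. It states that without spike-in scaling the peaks of C48 samples are counted too low. A value given here as lower in C48 is thus lower relative to other peaks, and no absolute fall is shown. Luminal and epithelial genes carried the mark within 2 kb of their TSS, with summed scaled tags of 360 and 358 for GATA3 in C48 and 625 and 610 in DMSO, and 529 and 582 for EPCAM in C48 and 836 and 809 in DMSO. ESR1 and KRT18 also had such peaks, whereas the blood cell genes PTPRC and CD3E and the basal keratin KRT5 had none.

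The sequences under 3 peaks to which the results return, the largest rise, the largest rise of the most frequent element and a fall, are given here so that the elements can be seen. Each is the plus strand of hg38, from the middle of the peak and at most 300 bases long. Capitals mark stretches made of 12-base words that also occur, on either strand, in at least 2 other peaks of the same element name.
MER115 near STEAP3, chr2:119205150-119205449: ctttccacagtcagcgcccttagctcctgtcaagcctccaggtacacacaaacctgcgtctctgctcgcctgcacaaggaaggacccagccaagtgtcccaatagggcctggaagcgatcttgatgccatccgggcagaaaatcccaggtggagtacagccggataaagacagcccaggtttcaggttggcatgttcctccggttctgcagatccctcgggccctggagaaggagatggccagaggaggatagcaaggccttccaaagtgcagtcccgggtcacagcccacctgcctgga
MER20 near ABLIM1, chr10:114524923-114525222: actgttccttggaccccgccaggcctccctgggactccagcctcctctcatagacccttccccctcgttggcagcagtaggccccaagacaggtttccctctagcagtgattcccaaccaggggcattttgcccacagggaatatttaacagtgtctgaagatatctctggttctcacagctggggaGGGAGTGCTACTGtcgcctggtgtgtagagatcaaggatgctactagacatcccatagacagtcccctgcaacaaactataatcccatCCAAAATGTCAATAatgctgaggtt
MER5A near BARD1, chr2:214808947-214809210: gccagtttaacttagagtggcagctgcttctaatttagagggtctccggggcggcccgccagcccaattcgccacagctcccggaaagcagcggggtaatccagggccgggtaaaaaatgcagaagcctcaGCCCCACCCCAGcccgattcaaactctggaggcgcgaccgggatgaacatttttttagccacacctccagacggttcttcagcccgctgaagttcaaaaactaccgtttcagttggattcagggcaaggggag
In exact words of this kind, little of these windows is shared with other peaks of their name. The windows were not trimmed to the element, and exact words miss stretches that differ by a base. How alike the copies are was therefore not measured. The MER20 peak of ABLIM1 shares 27 of 300 bases with other MER20 peaks, the MER5A peak of BARD1 12 of 264 bases with other MER5A peaks, and the MER115 peak near STEAP3 none with other MER115 peaks.

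Those peaks in DNA transposons that were strong enough to be tested were mostly higher with C48. Of the 1698 members, 308 reached the mean of 5 tags per 10 M required for testing. Limma (Benjamini-Hochberg adjusted p under 0.05 over all tested peaks) called 200 of them higher and 10 lower and did not call 98. That is 64.9% higher and 3.25% lower, where 37.4% of all tested peaks were called higher and 34.1% lower. The median log2 fold change of the tested members was 0.81, with quartiles of 0.29 and 1.35 and a range of -1.63 to 3.41, and 268 of the 308 lay above 0. Of those called higher, 123 were so by over 2-fold (39.9% of tested members, beside 15.5% of all tested peaks) and 18 by over 4-fold (5.84%, beside 2.07%). In 236 tested members both C48 libraries exceeded both DMSO libraries (76.6%, beside 45.4% of all tested peaks), and in 22 the reverse held (7.14%, beside 39.3%).

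**Figure D1:**
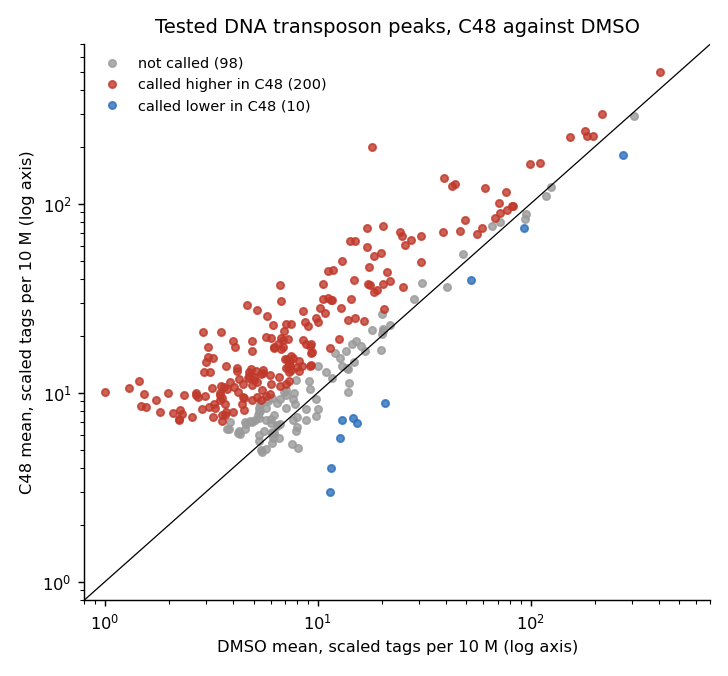
Mean scaled tags per 10 M of each of the 308 tested DNA transposon peaks in C48 (y axis, log scale) and in DMSO (x axis, log scale), 2 libraries each. Points are peaks, coloured by their limma call, and the line marks equal values; 200 peaks called higher lie above it and 10 called lower lie below it.

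The filter on the mean over all libraries bears on this count. Of the 308, 104 had a DMSO mean under 5 and passed only through their C48 values, so that a higher C48 level was part of their selection (81 called higher, 0 lower), and 2 passed only through DMSO (both called lower). The 204 members with a DMSO mean of at least 5, a restriction added after the data were seen, held 119 peaks called higher and 10 called lower (58.3% and 4.90%, median 0.56). The other intron and intergenic peaks with a DMSO mean of at least 5 were called higher in 40.0% and lower in 26.6% of 21029 cases (median 0.17). With no filter, 291 of 1509 members were called higher and 50 lower (median 0.12). Of all 102271 peaks tested in that way, 19.8% were called higher, a share near that of the members, and 16.0% lower. The counts below by family, element name, level, distance to a TSS and neighbour keep all 308 members, with these 104 among them.

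Summed over all 1698 members, tested or not, scaled tags were 11153 and 10951 in the C48 libraries and 7221 and 7378 in the DMSO libraries, 1.51-fold higher with C48 and without overlap. The members took 0.193 ± 0.0048% of the tags in merged peaks in C48 and 0.0985 ± 0.0016% in DMSO (SD, n = 2 per group), a ratio of 1.96 (two-sided exact permutation test, p = 0.33, the smallest that 2 against 2 libraries allow). Within intron and intergenic peaks their share was 0.480 ± 0.0093% in C48 and 0.275 ± 0.0046% in DMSO (SD, n = 2 per group), so that they gained a larger part of that signal too, by a ratio of 1.75 (exact permutation p = 0.33). These shares do not depend on the scaling of the libraries.

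The 1390 untested members were weak. Their deposited values summed to 1678 and 1542 tags per 10 M in C48 and 904.5 and 993.9 in DMSO, no untested member exceeded 9.25 tags per 10 M in any library, and 189 had no tag in any. In 359 of them (25.8%) both deposited C48 values exceeded both DMSO values, a share near the 27.0% of the 59001 other untested intron and intergenic peaks. In 155 (11.2%) the reverse held, as it did in 7056 of those others. The merged peak set was built by the authors from libraries that include other cell lines, and 1189 members were called as peaks in none of the 4 libraries. HOMER called 382 and 369 members in the C48 libraries and 216 and 211 in the DMSO libraries, where its calls over all merged peaks numbered 37462 and 37867 in C48 and 30162 and 29745 in DMSO. Of the members, 105 were called in both C48 libraries and no DMSO library, and 13 in both DMSO libraries and no C48 library. The matching counts over all merged peaks were not made, so these counts are not read as particular to the members.

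Peaks in other repeats were also called higher more often than lower. The 8097 tested intron and intergenic peaks in other repeats were called higher in 52.2% and lower in 8.20% of cases (median 0.51), and the 17227 peaks outside repeats in 43.6% and 28.6% (median 0.23). By class, the medians were 0.63 for SINE (58.8% higher, 6.47% lower, n = 2642), 0.62 for LTR (58.6% and 4.71%, n = 1891), 0.34 for LINE (42.1% and 10.4%, n = 2995) and 0.71 for satellites (68.4% and 6.97%, n = 244). Among peaks with a DMSO mean of at least 5, the medians were 0.56 for the members, 0.56 for satellites, 0.46 for SINE, 0.45 for LTR and 0.22 for LINE, so the order of the members among these classes depends on the filter. The peaks of a class are not replicates, and the difference between classes was not tested. Members in introns (95 of 147 higher, 5 lower, median 0.77) and between genes (105 of 161 higher, 5 lower, median 0.84) had like values. Outside the members, intron peaks had a median of 0.19 and intergenic peaks one of 0.47.

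Both large superfamilies moved. The hAT peaks had 139 of 212 called higher and 7 lower (median 0.78), and the Tc/mariner peaks 60 of 94 higher and 3 lower (median 0.85). Within hAT, the Charlie family gave most members (847, of which 151 were tested, with 99 higher, 4 lower and a median of 0.84). The Tip100 family had 23 of 36 higher and 1 lower (0.66), and Blackjack 10 of 14 higher and 1 lower (1.35). Among Tc/mariner elements, Tigger had 55 of 88 higher and 3 lower (0.83) and Mariner 4 of 5 higher and 0 lower (0.92). The 5 tested peaks annotated only as hAT included 3 called higher and 1 lower. Of the small families, hAT-Ac and hAT-Tip100? each had 2 of 3 tested peaks higher. PiggyBac and TcMar? each had 1 tested peak, called higher, and the family named DNA had 1, not called. The families TcMar-Tc2, MULE-MuDR, PiggyBac? and hAT?, with 15, 4, 4 and 4 members, had no tested peak.

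**Figure D2:**
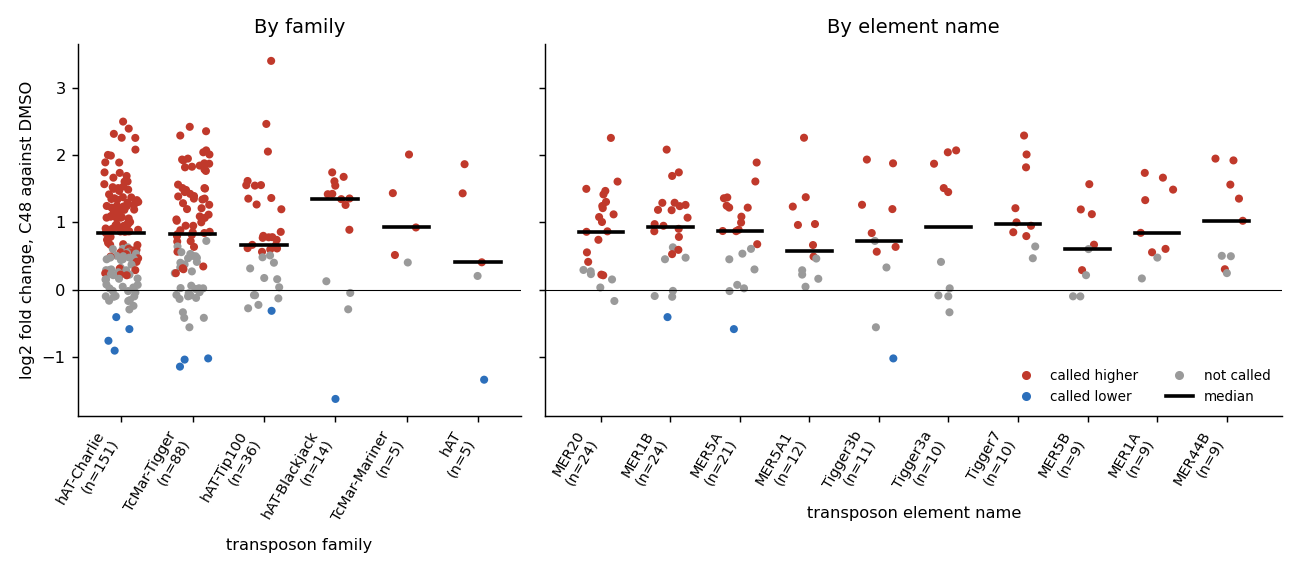
Log2 fold change (C48 against DMSO, y axis) of tested DNA transposon peaks by family (left, families with at least 5 tested peaks) and by element name (right, names with at least 9). Points are peaks coloured by limma call, black lines are medians, and n is the number of tested peaks; every median shown lies above 0, from 0.41 (hAT) to 1.35 (hAT-Blackjack).

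The element names with at least 10 tested peaks all had more members called higher than lower. MER20, a short Charlie-type element, had 18 of 24 tested peaks higher and 0 lower (median 0.86). MER1B had 17 of 24 higher and 1 lower (0.93), and MER5A 13 of 21 higher and 1 lower (0.87). MER5A1 had 7 of 12 higher and 0 lower (0.58). Of the Tiggers, Tigger7 had 8 of 10 higher and 0 lower (0.98), Tigger3b 7 of 11 higher and 1 lower (0.72), and Tigger3a 5 of 10 higher and 0 lower (0.93). The spread within a name was wide: Tigger3a peaks ran from -0.34 to 2.07 and MER5A peaks from -0.59 to 1.89. MER115, with 5 of 6 higher and a median of 1.84, is mentioned because it holds the largest rise, and was chosen after its values were seen.

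The largest rise was at a MER115 element, a fossil of the Tip100 family, 18.5 kb upstream of STEAP3, a metalloreductase gene of iron uptake (chr2:119205039-119205561, intergenic). It had 197 and 200 scaled tags in C48 and 16.5 and 19.3 in DMSO, an 11.1-fold difference in means (log2 fold change 3.41, SE 0.12, limma adjusted p = 2.91e-32). The peak does not stand alone. An intergenic peak outside repeats ends 88 bases before it and had 209 and 221 scaled tags in C48 and 9.37 and 13.9 in DMSO (log2 fold change 4.12). HOMER called the MER115 peak in both DMSO libraries and in neither C48 library, and its neighbour in both C48 libraries, so the tag values and the per-library peak calls of the MER115 peak go opposite ways.

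Several of the other large rises lay within 2 kb of a TSS. The MER1B peak 1.06 kb upstream of ERLIN1, a gene of endoplasmic reticulum lipid rafts, had 63.7 and 62.6 scaled tags in C48 and 14.3 and 13.9 in DMSO (log2 fold change 2.08, limma adjusted p = 6.73e-18). The Tigger3a peak 1.17 kb upstream of a SEC22C start (intron 2 of NM_001349126) had 77.3 and 71.6 in C48 and 14.9 and 19.2 in DMSO (2.07). SEC22C encodes a vesicle trafficking protein. In none of these did the groups overlap. The MER20 peak in intron 6 of the ABLIM1 transcript NM_001352440 (chr10:114524863-114525284), in a gene for an actin-binding protein, had 25.7 and 29.2 in C48 and 6.84 and 3.49 in DMSO (2.26), and reached the filter only through C48. The Tigger3b peak in intron 1 of DDX18, an RNA helicase gene, had 39.8 and 48.1 in C48 and 11.5 and 10.8 in DMSO (1.88). DLGAP1-AS2, a noncoding RNA gene, held a MER112 peak with 26.3 and 24.8 in C48 and 4.56 and 6.96 in DMSO (2.00). A Charlie17a peak in the noncoding gene ZFPM2-AS1, on chromosome 8, had 42.5 and 31.6 in C48 and 5.32 and 8.01 in DMSO (2.32).

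Others lay far from any TSS of the deposited table. A Tigger1 peak whose nearest gene is PCGEM1, a noncoding RNA gene, had 31.0 and 27.6 scaled tags in C48 and 4.94 and 4.35 in DMSO (log2 fold change 2.42), and reached the filter only through C48. The intergenic peak 563 bases from it had like values (156 and 175 in C48, 143 and 183 in DMSO, log2 fold change 0.03, not called). A Tigger7 peak in intron 4 of PDCD4, a translation inhibitor gene, had 65.3 and 61.6 in C48 and 13.6 and 16.5 in DMSO (2.01). It lies 12.2 kb from the TSS in the deposited table but 0.67 kb from a TSS of GENCODE version 44. A wide MER53 peak nearest to LINC01227 had 79.4 and 73.0 in C48 and 19.2 and 21.1 in DMSO (1.87), and the PiggyBac element Looper, 4.51 kb from LINC01970, 46.2 and 54.0 in C48 and 13.1 and 13.1 in DMSO (1.86). Pairs of neighbouring members moved together: a Tigger3c pair near LINC01694 on chromosome 21, 242 bases apart, had log2 fold changes of 1.85 and 1.77, and a MER44B pair near LOC105378098 on chromosome 6 had 1.92 and 1.56. By GENCODE the Tigger3c pair lies 0.949 and 0.307 kb and the MER44B pair 1.95 and 2.37 kb from a TSS of a long noncoding RNA.

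**Figure D3:**
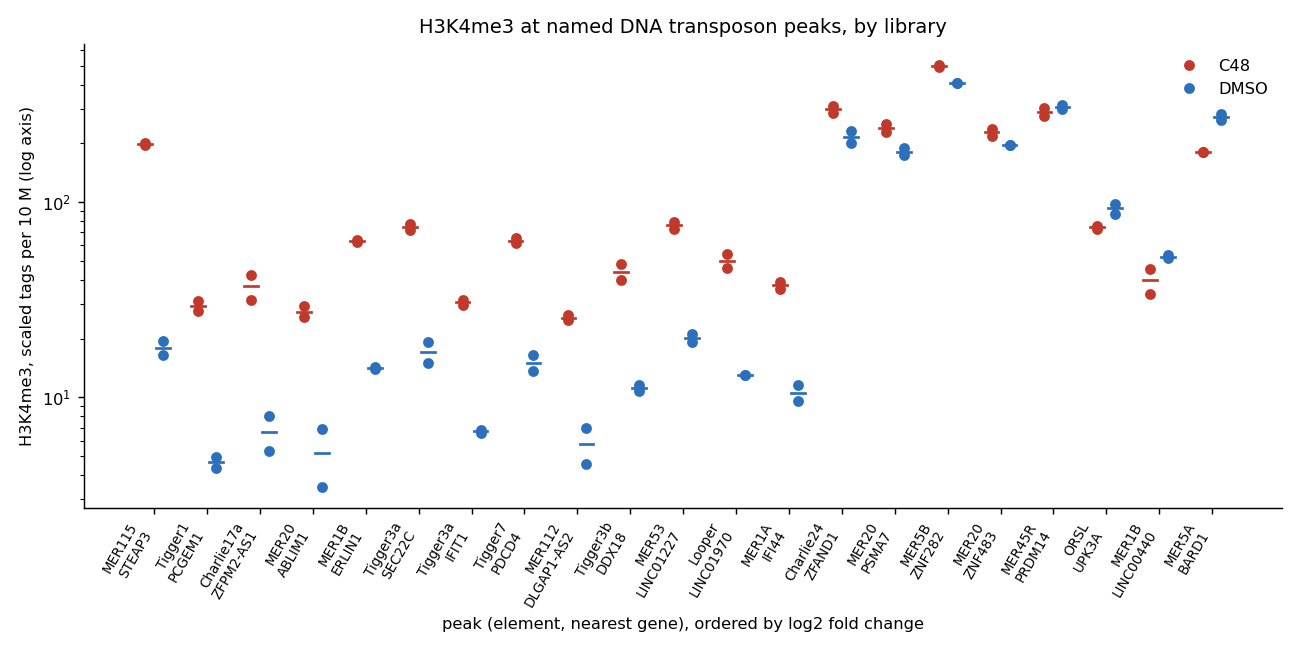
Scaled tags per 10 M (y axis, log scale) at named DNA transposon peaks, ordered from left to right by log2 fold change, with C48 libraries left of DMSO libraries at each peak. Points are libraries and short lines the mean of 2. From MER115 near STEAP3 to MER1A in IFI44 the C48 points lie clear of the DMSO points, while most of the strongest peaks differ little. The 3 peaks at the right are called lower in C48, of which none is lower when scaled on ribosomal protein promoters.

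Peaks with the smallest p of their family or element name showed the same range. Strong intronic peaks were found in ORC5, an origin recognition gene (Tigger3a, 129 and 119 scaled tags in C48 and 41.2 and 44.6 in DMSO, log2 fold change 1.51), and in ALMS1, a centrosome gene (MER3, 134 and 121 in C48 and 45.5 and 42.5 in DMSO, 1.51). The Blackjack element MER94 in intron 1 of CDK5RAP2, also a centrosome gene, averaged 59.1 ± 0.44 in C48 (SD, n = 2), 3.47-fold its mean in DMSO (1.75). A MER20 peak in intron 1 of ANGEL1 averaged 52.6 ± 0.71 in C48 and 18.4 ± 0.88 in DMSO (SD, n = 2 each, 1.47). Of the Mariner family, a MARNA peak upstream of TEAD4, a Hippo pathway transcription factor gene, had 21.0 and 16.5 in C48 and 2.91 and 5.05 in DMSO (2.01). A MER5A1 peak in PHACTR1 had 17.2 and 17.7 in C48 and 1.77 and 4.35 in DMSO (2.26). These 2 and the Eulor8 peak near ACTR3B reached the filter only through C48. The peaks of MamRep1879 near RAB2B (1.48), Eulor8 near ACTR3B (2.09) and OldhAT1 near the pseudogene TTC3P1 (0.81) were called higher, and Eulor9C in CDYL (31 and 32 tags in C48, 32 and 25 in DMSO, 0.15) was not called.

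The strongest members mostly differed little. The exception was the MER5A peak in BARD1, also among the 6 strongest, which was called lower (log2 fold change -0.59) and is described below with its scaling. The strongest, a MER5B peak in intron 1 of ZNF282, a zinc finger gene, had 490 and 504 scaled tags in C48 and 407 and 406 in DMSO (log2 fold change 0.29). Charlie24 in ZFAND1 (0.47), MER20 in PSMA7, a proteasome subunit gene (0.41), and MER20 in ZNF483 (0.21) were called higher, but ZNF483 lost its call with DESeq2 factors (0.14) or without C48 replicate 2 (0.18). A MER45R peak nearest to PRDM14, a germ cell regulator gene, had 303 and 277 in C48 and 301 and 313 in DMSO (-0.08, not called), and changed sign with the scaling (0.25 on the deposited scale). By mean level, the members' median was 0.78 under 10 tags per 10 M (80 of 146 higher, 3 lower), 0.88 from 10 to 20 (59 of 82, 4 lower), 1.12 from 20 to 50 (36 of 45, 1 lower) and 0.31 from 50 up (25 of 35, 2 lower). For other intron and intergenic peaks the medians in the same ranges were 0.66, 0.64, 0.50 and -0.19. These ranges keep the 104 members that passed the filter only through C48 (median level 6.48, 81 called higher, 0 lower). They also keep the other peaks that passed in that way.

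Only 10 tested members were called lower. By the naming rule these include the MER5A peak in intron 1 of BARD1, whose product is the partner of BRCA1 (chr2:214808947-214809210), with 181 and 180 scaled tags in C48 and 282 and 262 in DMSO (log2 fold change -0.59, SE 0.07, limma adjusted p = 1.88e-11). MER1B near LINC00440 had 33.9 and 45.5 in C48 and 51.5 and 53.4 in DMSO (-0.41), and ORSL near UPK3A had 73.2 and 75.2 in C48 and 98.2 and 87.4 in DMSO (-0.32). These directions depend on the scaling. On ribosomal protein promoters BARD1 stood at 0.17, LINC00440 at 0.33 and UPK3A at 0.43, and on the deposited scale LINC00440 was not called (-0.08) and UPK3A was at 0.012. Without C48 replicate 1, LINC00440 (-0.17) and UPK3A (-0.27) were not called, and without DMSO replicate 1 UPK3A (-0.24) was not. The other 7, named after their values were seen, were weak peaks in MER81 near LOC105371485 (-1.63), MamRep38 near the keratin gene KRT8 (-1.34), MER44A in PRMT7 (-1.15), Tigger3 near SNORA3C (-1.04), Tigger3b near C8orf89 (-1.03), MER113 near RMI2 (-0.91) and MER20B in LINC01983 (-0.76). The MER81 and MamRep38 peaks reached the filter only through DMSO, so that a higher DMSO level was part of their selection. On ribosomal protein promoters 2 members in all were called lower.

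By distance to the nearest TSS, the members' median over all levels was highest within 2 kb, but not among the stronger members. Within 2 kb of a TSS, 45 of 53 tested members were called higher and 1 lower (median 1.19), whereas other intron and intergenic peaks there had a median of -0.02 (38.3% higher and 42.1% lower of 8733), and those in other repeats 0.70 (68.5% and 11.1% of 1175). From 2 to 10 kb, the members had 13 of 36 higher and 2 lower (0.47, against 0.33 for other intron and intergenic peaks). From 10 to 50 kb, 62 of 106 were higher and 4 lower (0.62, against 0.39), and beyond 50 kb 80 of 113 were higher and 3 lower (0.87, against 0.60). The share called higher is thus lowest at 2 to 10 kb. Of the 53 near a TSS, 40 lay downstream and 13 upstream. Members near a TSS were also stronger, with a median level of 27.5 tags per 10 M there and 6.83 at 2 to 10 kb. Among members of at least 20 tags, the median was 0.63 within 2 kb (n = 34) and 0.70 farther away (n = 46), and only under 20 tags was it larger near a TSS (1.61, n = 19, and 0.78, n = 209). For other intron and intergenic peaks of at least 20 tags these medians were -0.16 and 0.26.

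**Figure D4:**
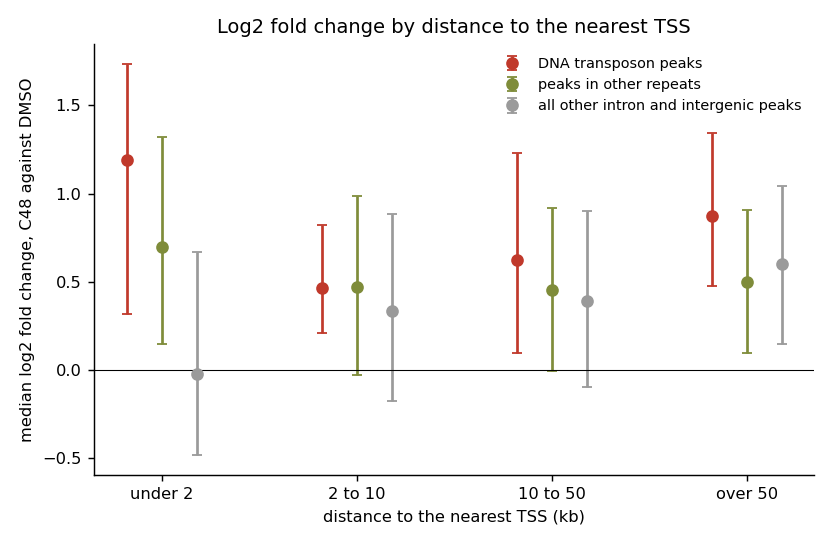
Median log2 fold change (C48 against DMSO, y axis) in 4 ranges of TSS distance (x axis, kb) for tested DNA transposon peaks, peaks in other repeats and all other intron and intergenic peaks. Points are medians and bars span the quartiles; within 2 kb the medians are 1.19, 0.70 and -0.02, and from 2 to 10 kb they are 0.47, 0.47 and 0.33.

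At 32 of the 53 a tested promoter of the nearest gene allowed a comparison within the gene. The member stood above the promoter in 31 of 32, with a median log2 fold change of 1.07 for the members and -0.46 for the promoters and a median difference of 1.37. In 18 pairs the member was called higher and the promoter lower, in 6 both were higher, in 6 the member was not called and the promoter lower, in 1 the member was higher and the promoter not called, and in 1, BARD1, both were lower. Of all 10017 tested promoters, 18.9% were called higher and 58.3% lower, against 35.5% and 38.4% on the deposited scale and 69.6% and 9.24% on ribosomal protein promoters, so the balance over all promoters is set by the scaling. On the deposited scale 12 of the 32 promoters lay above 0 and 20 below (median -0.13), and again 31 members exceeded their promoter (median difference 1.35), so the promoters' direction depends on the scaling. A scaling factor shifts both peaks of a pair nearly alike and leaves their difference almost as it was by construction. Peaks in other repeats within 2 kb of a TSS had a median of 0.70, and all tested promoters one of -0.34. Such pairs were not counted for other peaks, so the 31 of 32 is not read as particular to DNA transposons. The members near PRPF40B, TRIM16L and TEAD4, among these pairs, reached the filter only through C48. The MER1B peak of ERLIN1 set 63.7 and 62.6 tags in C48 and 14.3 and 13.9 in DMSO beside a promoter with 546 and 602 in C48 and 653 and 663 in DMSO (-0.20). For ALMS1 the promoter had 52.9 and 52.1 in C48 and 78.4 and 89.8 in DMSO (-0.67), against 1.51 at its MER3 peak. The exception was XDH, with 0.86 at its MER20 peak and 1.32 at its promoter.

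**Figure D5:**
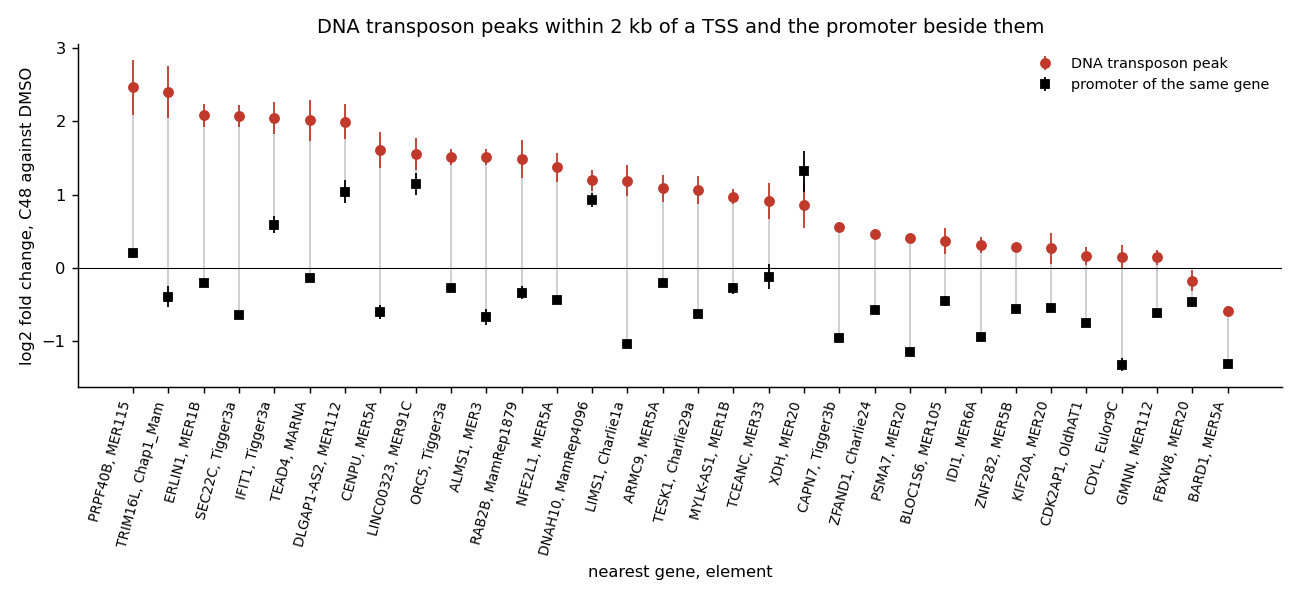
Log2 fold change (C48 against DMSO, y axis) of the 32 DNA transposon peaks within 2 kb of a TSS that have a tested promoter (red circles) and of the promoter of the same gene (black squares), ordered by the member's value; bars are SE and grey lines join a pair. In 31 pairs the circle lies above the square; the promoters' direction depends on the scaling, with 20 of 32 below 0 on the deposited scale and 25 called lower with TMM.

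Many members had another merged peak close by. Of the 308 tested, 164 lay under 1 kb from their nearest merged peak (median gap 186 bases), which had the higher level in 83 cases. These 164 had 110 members called higher and 7 lower (median 0.91), and the 144 with no merged peak within 1 kb had 90 higher and 3 lower (0.69). Where the close neighbour was itself tested (111), it was called higher in 57 cases and lower in 31, and in 22 cases the member was higher beside a neighbour called lower. Whether the members close to another peak carry a signal of their own or that of the neighbour's edge was not tested. By GENCODE version 44, which lists more start sites than the deposited table used, 56 of 308 tested members (18.2%) lay within 1 kb of a TSS, against 40.4% of the other intron and intergenic peaks. Of the 255 members over 2 kb from a TSS by the deposited table, 27 (10.6%) lay within 1 kb of a GENCODE TSS, 12 of these of long noncoding RNAs. Among the other intron and intergenic peaks over 2 kb away the share was larger, with 3006 of 16591 (18.1%), 1214 of these of long noncoding RNAs.

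The study followed an interferon and an antigen presentation signature. By the deposited annotation, 5 members had a gene of the interferon signature as their nearest gene, of which 3 were tested. The Tigger3a peak in intron 2 of the IFIT1 transcript NM_001270930, 1.55 kb from the TSS, had 29.8 and 31.7 scaled tags in C48 and 6.58 and 6.80 in DMSO (log2 fold change 2.04, SE 0.21, limma adjusted p = 1.64e-12). IFIT1 encodes an interferon-induced protein that binds foreign RNA. Its promoter had 72.2 and 73.1 in C48 and 44.6 and 51.5 in DMSO (0.59), and the 5' UTR peak 466 bases from the Tigger3a peak had 90.2 and 90.0 in C48 and 24.8 and 24.9 in DMSO (1.82). A MER20 peak 25.8 kb upstream of PTPN1, a phosphatase gene, had 12.2 and 13.3 in C48 and 5.95 and 5.05 in DMSO (1.08), and reached the filter, which was set on deposited values, only through C48, as did the next peak. That is a MER5A peak which the deposited annotation assigns to MX1, an antiviral GTPase gene whose start lies 23.7 kb away. It sits in intron 7 of the transcript NM_002463, and its nearest GENCODE TSS is that of MX2, at 2.09 kb. This MER5A peak had 5.62 and 5.54 in C48 and 5.70 and 4.87 in DMSO and was not called (0.07, limma adjusted p = 0.855). In IFI44, an interferon-induced gene named after its values were seen, a MER1A peak in intron 2 had 36.0 and 38.8 in C48 and 11.5 and 9.57 in DMSO (1.74). Of the 31 tested promoters of the signature, 9 were called higher and 15 lower, beside 18.9% and 58.3% of all promoters, but the balance turned with the scaling, to 13 higher and 7 lower on the deposited scale (35.5% and 38.4% of all promoters) and 25 and 2 on ribosomal protein promoters (69.6% and 9.24%). For the antigen presentation signature there was 1 such member, not tested.

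The members differed from other peaks in base composition. Their 300-base windows had a median GC content of 48.2% among the 308 tested, against 56.7% among other tested intron and intergenic peaks and 53.7% among those in other repeats. They held a median of 6 CG pairs, against 11 and 10. Members called higher (median GC 47.8%) and not called (48.3%) had like values. Of the motifs searched on both strands, GGGCGG, the core of a GC box, was in 11.4% of tested members and 32.9% of the other tested intron and intergenic windows. TATAA was in 30.2% and 17.6%, CCAAT in 36.7% and 24.2%, and TGANTCA, the AP-1 type motif, in 13.6% and 6.91%. CCGGAA was in 4.55% and 9.95%, TGTTTAC in 6.82% and 5.45%, and AGATAA in 14.6% and 8.05%. In tested peaks of other repeats, TATAA was about as frequent as in the members (29.1%) and TGTTTAC more frequent (9.63%), while GGGCGG was in 17.7%, CCAAT in 27.6%, TGANTCA in 7.02%, CCGGAA in 6.09% and AGATAA in 8.39%. These are matches of letters in windows of unequal base content and not sites.

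The most frequent 14-base word of Tigger7 peaks, on chromosomes other than 8, is shown because the same letters turn up under other names.
Tigger7: aattccagaaataa
The Tigger7 word was in 5 of 25 Tigger7 peaks and in 10 peaks of the MER44 group (5 of MER44C, 4 of MER44B and 1 of MER44D). Of tested peaks, MER44B had 6 of 9 called higher, MER44C 2 of 3 and MER44D 2 of 2, with 0 lower. MER44A, where the word was not found, had 2 of 3 higher and 1 lower. These are calls of all tested peaks of a name, with or without the word. It was in 1 of 10 tested Tigger7 peaks, and its presence in tested MER44 peaks was not counted. Of all tested members 64.9% were called higher. Peaks of such related names share their sequence and are not independent of each other.

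Genes that descend from DNA transposon proteins were examined as a list, of which 1 gene had a member, not tested, as its neighbour. Promoter peaks were tested for 15 of 32 such genes, of which 5 were called higher, 9 lower and 1 not, against 6 higher and 6 lower on the deposited scale and 10 and 1 on ribosomal protein promoters. Of all promoters, 35.5% and 38.4% were called higher and lower on the deposited scale and 69.6% and 9.24% on ribosomal protein promoters. TIGD1, derived from a Tigger transposase, had 37.2 and 38.8 scaled tags in C48 and 9.50 and 11.5 in DMSO (log2 fold change 1.77, limma adjusted p = 4.75e-10). TIGD2 (0.89), TIGD4 (0.51), SETMAR, a fusion of a methyltransferase and a mariner transposase (0.66), and CENPB, a centromere protein (0.24), were also higher. TIGD3 (-0.97), ZBED4 (-0.96) and PGBD5 (-0.87) fell most. The list's median was -0.28, and that of all tested promoters -0.34, while on the deposited scale they were 0.05 and -0.01.

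The repeat table counts reads per subfamily over the whole genome, in the same 4 libraries, and so also takes in copies outside peaks. DNA transposons took 4.55 ± 0.013% of its counts in C48 and 3.70 ± 0.045% in DMSO (SD, n = 2 per group), a ratio of 1.23 (exact permutation p = 0.33). Of 243 tested subfamilies of class DNA, edgeR's quasi-likelihood test called 144 higher and 19 lower (59.3% and 7.82%), with a median log2 fold change of 0.35, where 31.0% of all 4347 tested subfamilies were higher and 33.6% lower (median 0.01). In counts scaled to library size (CPM), MER30 had 432 and 442 in C48 and 240 and 248 in DMSO (0.84, edgeR adjusted p = 2.59e-10). MER20 had 2958 and 2932 in C48 and 2099 and 2148 in DMSO (0.47), and MER5A 4633 and 4645 in C48 and 3696 and 3636 in DMSO (0.34). MER3 (0.62), MER33 (0.58), Tigger7 (0.64), MER5A1 (0.41), Tigger3a (0.45), MER1B (0.24) and Tigger3b (0.24) were higher too. So were the mariner elements HSMAR1 (0.64) and MADE1 (0.38), the PiggyBac elements Looper (0.79) and MER85 (0.59), and Charlie1 (0.56).

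Not all subfamilies moved this way. Tigger1 had 1064 and 1047 CPM in C48 and 1129 and 1166 in DMSO (log2 fold change -0.12, edgeR adjusted p = 0.00427), although 3 of its 4 tested peaks were called higher. Of these, the peaks nearest to PCGEM1 and CRCP reached the filter only through C48, and only 4 of the 41 Tigger1 members were tested. HSMAR2 was not called (0.06). By family, the subfamilies of hAT-Charlie had 55 of 77 called higher and 2 lower (median 0.44), TcMar-Tigger 37 of 65 and 6 (0.36), and hAT-Tip100 23 of 42 and 4 (0.22). All 5 MULE-MuDR subfamilies, the Ricksha elements, were called lower (median -0.55), and none of the 4 MULE-MuDR peaks was strong enough to be tested. Counts of related subfamilies share reads and are less certain separately.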

How the data were processed

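Members and lists were chosen with earlier results of these data known. Per the submitters' processing notes, the authors used Bowtie2 2.3.4.1 and hg38; they called peaks per library with HOMER and merged them over libraries that include other cell lines. The deposited signal is tags per 10 M aligned tags, without spike-in scaling, and 100% of values gave whole tags within 0.1 tags. The authors' peak score was used only to split members. The deposited repeat table holds estimated counts from RepEnrich2, used as whole numbers. Versions of HOMER and RepEnrich2 are not given in the sources used here.

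Peaks with a mean deposited value of at least 5, which is how the planned filter on scaled values was read, were scaled with TMM factors (edgeR 4.0.16) and tested on log2(value + 1) with limma-trend (limma 3.58.1, R 4.3.3). This scale understates changes of weak peaks. Adjusted p-values are Benjamini-Hochberg over all tested peaks, with calls at 0.05. Repeat counts were tested with edgeR's quasi-likelihood test. Promoter peaks were summed per gene. Named peaks are the 12 largest rises and up to 8 largest falls among called, non-overlapping members with a mean of at least 15 tags, of which 3 falls qualified, the 6 strongest members, the smallest p per family and per element name with 10 or more tested peaks, and neighbours of signature genes. Alternatives covered scaling, filter, pseudocount, test (edgeR, DESeq2 1.42.0 on recovered tags), replicate block, single libraries and membership. The fits were tested on simulated data. Sequences were read from hg38 with pysam 0.24.0, and motifs and words were counted with Python 3.11.15. Sequences of some named peaks are not reported here. Column names and descriptions tie each column to its sample.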

Additional observations from a re-analysis of the deposited data

How the results depend on the processing

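Replicates and depth limit what follows: 2 libraries a group, and members with a median mean level of 10.6 tags per 10 M. The 21 alternatives kept more members higher than lower, with 85.3% to 99.3% of calls higher. Counts of members called higher and lower, with the median log2 fold change, were 248, 7 and 1.10 on the deposited scale, 252, 7 and 1.13 on the column total, 185, 12 and 0.74 with DESeq2 factors and 283, 2 and 1.48 on ribosomal protein promoters. All tested peaks moved with them, with 54.7%, 57.2%, 34.1% and 79.5% called higher and 20.9%, 19.3%, 36.6% and 4.74% lower on these 4 scalings. With no filter the members' values were 291, 50 and 0.12 (1509 tested), beside 19.8% higher and 16.0% lower of all 102271 peaks. The members' share called higher was then near that of all peaks, and their share called lower was smaller. At a mean of at least 10 the members' values were 121, 6 and 0.84 (all peaks 35.5% higher and 40.2% lower). At a mean of at least 20 they were 64, 3 and 0.70 (all peaks 30.9% and 47.8%). A pseudocount of 5 gave a median of 0.57, and edgeR on the recovered tags 200, 10 and 0.86. The DESeq2 Wald test gave 157 and 10, members with a higher peak score 113, 4 and 0.89, and, added after the data were seen, 119, 10 and 0.56 for those with a DMSO mean of at least 5. Leaving out 1 library at a time gave 151 to 212 higher, 8 to 12 lower and medians of 0.73 to 0.84, with the lowest without C48 replicate 1. For repeat subfamilies of class DNA it gave 137 to 144 higher and 14 to 21 lower. Leaving out 1 library at a time, the family DNA, with 1 peak (Eulor9C in CDYL), ran from -0.052 (without DMSO replicate 2) to 0.33, MER5A near MX1 from -0.039 (without DMSO replicate 2) to 0.16, and MER45R near PRDM14 from -0.12 to 0.0097 (without C48 replicate 2). MER45R near PRDM14 was at 0.25 on the deposited scale, 0.29 by column total and 0.67 by ribosomal protein promoters. ORSL near UPK3A was at 0.012, 0.053 and 0.43 on these 3 scalings. On ribosomal protein promoters MER1B near LINC00440 was at 0.33 and MER5A in BARD1 at 0.17. The cause was not tested. Over all named peaks and alternatives, 537 values kept direction and call, 16 lost the call, 5 gained one and 11 changed sign, and of the family and element medians 83 moved little, 58 moved more and 1, that of family DNA, changed sign. Same-numbered libraries did not deviate together (correlation -0.03 over all peaks), and with the replicate block 200 members were called higher and 10 lower, as without it, while 143 DNA subfamilies were higher and 19 lower.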
